A study of Mus musculus with 25 samples.

Results

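The genes described here are the 8 tryptophan- and arginine-consuming enzymes Ido1, Ido2, Tdo2, Kynu, Kmo, Il4i1, Arg1 and Nos2, chosen by symbol from the 55450 genes of the count table, without use of any measured value. Their RNA was measured in bulk in 25 melanomas that C57BL/6 mice had formed from implanted cells of B2905 (M4), a mouse melanoma line. Of 40 implanted mice, those treated received repeated doses of 10 mg/kg antibody from an average tumour size of 75 mm3 on. The control group is 5 tumours under the isotype antibody IgG2b. The other 20 tumours come from the arm of 30 mice given anti-CTLA-4, an antibody to an inhibitory receptor on T cells, and carry the outcome that the labels assign 10 to 11 days after the last dose. Of these, 6 non-responders grew, 6 stable tumours kept their size and 8 responders shrank. All 4 groups therefore share the line, the strain and the implantation, and the 3 outcome groups differ from the controls in the antibody. The model is 1 implanted line, each library is 1 tumour, and the labels describe no sorting of cells. Outcome was read from tumour growth in the same mice, so the outcome groups were not assigned at random.

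Tryptophan leaves the cell's amino acid pool by 2 routes covered here. Ido1, Ido2 and Tdo2 open the kynurenine pathway by cleaving the indole ring, and Kmo and Kynu process kynurenine further towards quinolinic acid and nicotinamide nucleotides. Il4i1, a secreted amino acid oxidase, instead turns tryptophan and phenylalanine into keto acids. Arg1 splits arginine into ornithine and urea, and Nos2, the inducible nitric oxide synthase, turns the same substrate into nitric oxide and citrulline. In tumours these enzymes are known from macrophages, dendritic cells and other myeloid cells, where loss of tryptophan or arginine, or the products made from them, can restrain T cells. Ido1 and Nos2 are textbook targets of interferon gamma, and Arg1 of interleukin 4 and interleukin 13.

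Library depth was 8.77 to 34.3 M counts per tumour. Protein-coding genes held 82.9% to 89.2% of the counts in every control, non-responder and stable tumour and 87.0% in responder 5, but 23.8% to 74.3% in the other 7 responders. The numbers of the libraries follow the groups in the labels, so an effect of processing order cannot be told apart from group. Levels are given as CPM, counts per M counts of the TMM-scaled library, and levels of different genes are compared as RPKM, which also divides by gene length. The 5 melanocyte markers (Mlana, Dct, Tyr, Tyrp1 and Pmel) summed to 17.6 to 408.8 CPM in responders, 10.4 to 162.8 in stable tumours, 375.8 to 13060 in non-responders and 9759 to 16200 in controls, so the pigment cell label was visible in controls and low in 2 of the outcome groups. The 5 macrophage markers summed to 719.5 to 2203 CPM in responders, 1589 to 2507 in stable tumours, 490.4 to 1799 in non-responders and 345.1 to 621.5 in controls.

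All 7 enzymes that could be tested were higher in anti-CTLA-4 tumours than in controls, where 51.1% of the 18031 tested genes were called, 27.7% higher and 23.4% lower. A gene is called where its adjusted p in edgeR's quasi-likelihood test is under 0.05. The median log2 fold change of the 7 was 3.16, against 0.07 over all tested genes. The largest fitted difference was that of Nos2, with 5.53 log2 units (SE 0.766, adjusted p = 4.89e-06), and the smallest that of Kmo, at 1.20 (SE 0.279, adjusted p = 0.00101). Tdo2 did not pass the filter on low counts and is described by its counts. Among the outcome groups, the same 7 were called higher than in controls in stable tumours (background 41.8% called, 22.2% higher and 19.6% lower) and in responders (background 65.0% called, 36.1% higher and 28.9% lower). In non-responders 6 were called higher, all but Arg1, where 13.9% of tested genes were called, 10.6% higher and 3.29% lower. These comparisons share the 5 control tumours, so their values are not independent of each other. In bulk tumours fewer cells of a type and less RNA per cell cannot be told apart, which holds for every difference below. Where tumours of a group are said below to lie above or below all of another, the share of all tested genes that do so was not counted.

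**Figure D1:**
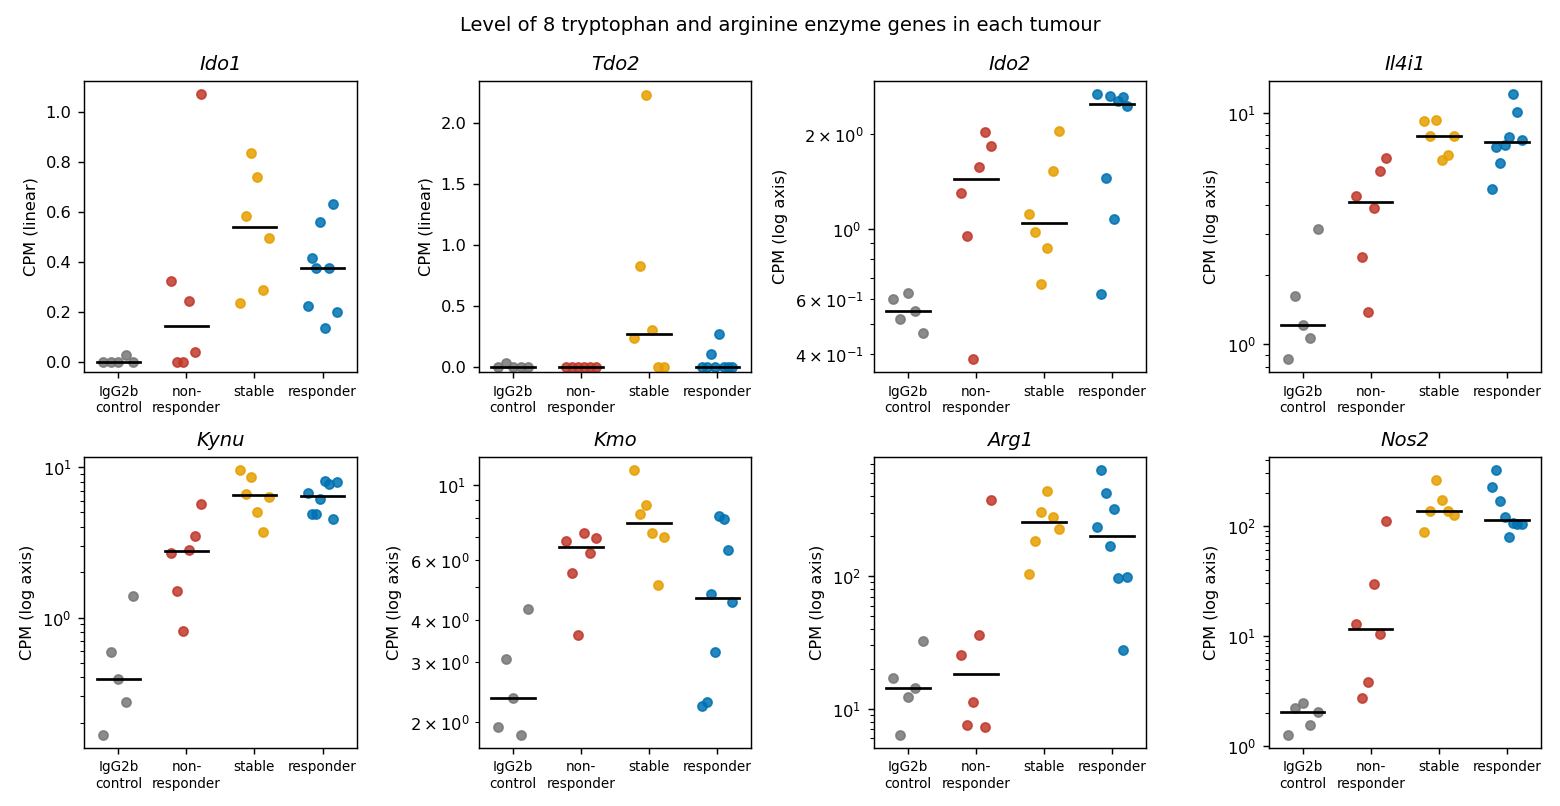
Level of each enzyme in every tumour, in CPM, by group (5 IgG2b controls, 6 non-responders, 6 stable tumours, 8 responders); points are tumours, bars are medians, and the axis is linear for Ido1 and Tdo2 and logarithmic for the other 6. All 20 anti-CTLA-4 tumours lie above all controls for Nos2, while non-responder 6 is the only non-responder within the range of the stable tumours for Arg1.

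Between outcome groups, Nos2, Kynu and Il4i1 were called higher in responders than in non-responders, 3 of 7 tested enzymes where 48.9% of genes were called, 25.2% higher and 23.8% lower. These 3 enzymes were also called above the non-responders in stable tumours, where 14.9% of genes were called, 7.08% higher and 7.86% lower. The median log2 fold change of the 7 was 0.97 in both comparisons, which share the 6 non-responders, against medians of 0.05 and -0.02 over all genes. None of the 7 was called between responders and stable tumours, where 38.2% of genes were called, 20.5% higher and 17.8% lower. Of the 7 only Kmo had an unadjusted p under 0.05 in edgeR, and DESeq2 called it. When the fit also held each library's protein-coding share, the 3 calls between responders and non-responders were lost, at adjusted p of 0.0555 for Nos2, 0.101 for Kynu and 0.0552 for Il4i1, while the log2 fold changes were 2.18, 1.16 and 1.16. Without responders 1 and 4, the libraries of lowest protein-coding share, the 3 calls were kept, with log2 fold changes of 2.37, 1.15 and 1.07.

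**Figure D2:**
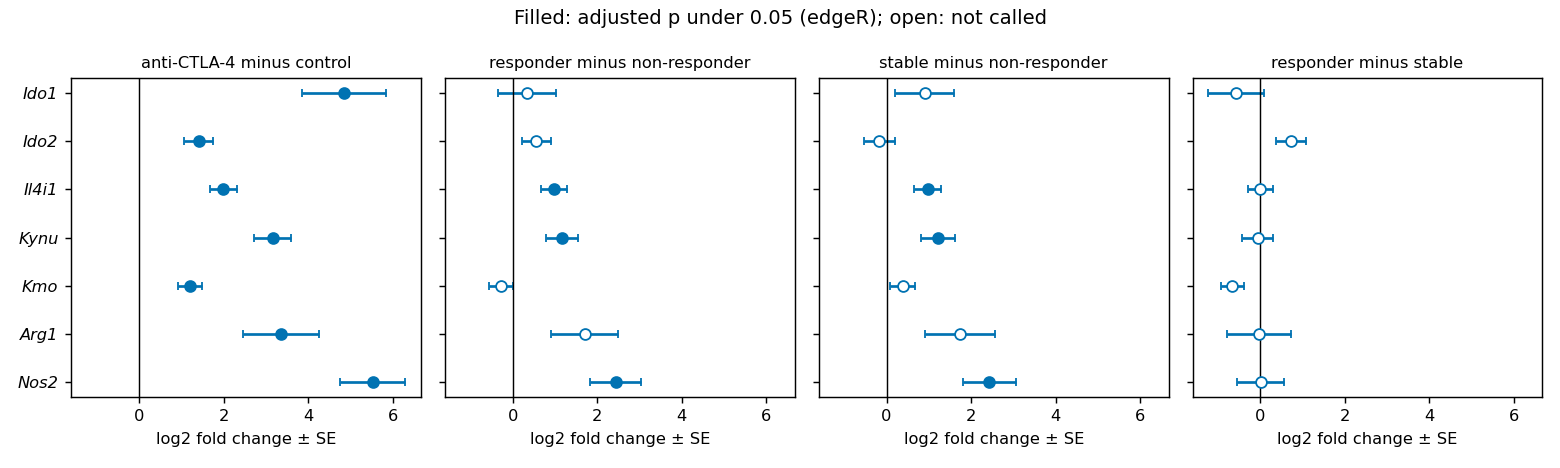
Log2 fold change with its standard error for the 7 tested enzymes in 4 comparisons; filled points have an adjusted p under 0.05 in edgeR and open points do not. All 7 are filled and above 0 for anti-CTLA-4 minus control, Nos2, Kynu and Il4i1 are filled against non-responders, and none is filled for responder minus stable.

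Of the 3 enzymes that open the kynurenine pathway, Ido1 (ENSMUSG00000031551.12, GRCm38 chromosome 8, 24584136 to 24597009, minus strand) was read 138 times in the 25 tumours together. It had 1 count over the 5 controls, in control 4 at 0.0274 CPM, and 0 in controls 1, 2, 3 and 5. The RPKM table put controls 2 and 3, which had 0 counts, at 0.0154 and 0.017, above control 4 at 0.0112. Non-responders ran from 0 over a median of 0.142 to 1.07 CPM, stable tumours from 0.235 over 0.541 to 0.836 CPM, and responders from 0.135 over 0.377 to 0.633 CPM. Every stable tumour and responder lay above every control, while 2 non-responders had no count and non-responder 6 had the highest level of all 25 tumours. Responder 1 also had only 1 count, at 0.223 CPM. It lay above control 4 because its TMM-scaled library held 4.48 M counts, against 36.5 M there. Pooled over the controls, the 1 count gives a ratio of anti-CTLA-4 tumours to controls of 53.9, with a 95% exact Poisson interval of 9.67 to 2128 that covers counting error only. If control 4 is left out, the floor of 3 counts over the other 4 controls puts Ido1 at least 13.2-fold higher, by the count table alone. Its fitted log2 fold change of 4.85 (SE 0.99, adjusted p = 0.000294) rests on that single control count, and was 5.88 without control 4 (adjusted p = 0.00125).

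Between outcome groups, the means of Ido1 followed the order stable tumours (0.530 ± 0.240 CPM, SD, n = 6), responders (0.365 ± 0.174 CPM, n = 8), non-responders (0.280 ± 0.410 CPM, n = 6) and controls (0.00548 ± 0.0123 CPM, n = 5). No neighbouring anti-CTLA-4 groups differed beyond their spread. The log2 fold change was -0.57 for responders over stable tumours (95% interval -1.86 to 0.73) and 0.33 for responders over non-responders (-1.01 to 1.68, adjusted p = 0.703). Non-responder 6 weighed on the latter. Without it the non-responder mean was 0.122 ± 0.152 CPM (n = 5), the fitted difference from controls went from 4.44 to 3.12 (adjusted p = 0.0417), and Ido1 was called higher in responders (1.65, adjusted p = 0.0477) and in stable tumours (2.22, adjusted p = 0.0209) than in non-responders.

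Ido2, the neighbouring paralogue on the same strand (ENSMUSG00000031549.16, chromosome 8, 24531892 to 24576333), had more counts, 592 in all, and a different order of groups. Its levels in controls 1 to 5 were 0.600, 0.516, 0.626, 0.548 and 0.466 CPM, a narrow range. Non-responders ran from 0.387 over a median of 1.44 to 2.04 CPM, stable tumours from 0.669 over 1.05 to 2.05 CPM and responders from 0.623 over 2.50 to 2.68 CPM. Responders were the highest group by mean (2.01 ± 0.830 CPM, n = 8), with 5 of 8 above every stable tumour, although responder 2 lay within the range of the controls. Non-responder 3 lay below every control. Against controls the log2 fold change was 1.41 (SE 0.353, adjusted p = 0.00198) over all anti-CTLA-4 tumours, 1.83 in responders, 1.28 in non-responders and 1.11 in stable tumours. The latter 2 calls were unstable: leaving out 1 tumour at a time ended the non-responder call in 8 of 25 fits, among them every fit without a control, and the stable call in 5.

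For Ido2, responders and stable tumours differed by 0.72 on the log2 scale (95% interval 0.03 to 1.41), which edgeR did not call (unadjusted p = 0.0509, adjusted p = 0.105). That difference was 0.14 when adjusted for protein-coding share, and 0.86 (adjusted p = 0.0419) without responder 2 or 0.94 (adjusted p = 0.0490) without stable tumour 6. Responders over non-responders gave 0.55 (adjusted p = 0.187), and stable tumours over non-responders -0.17 (adjusted p = 0.807).

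Tdo2, the liver-type tryptophan dioxygenase (ENSMUSG00000028011.16, chromosome 3, 81957090 to 81976202, minus strand), was nearly absent from the counts. It had 77 counts in all, of which 68 fell in 4 of 6 stable tumours, 8 in 2 of 8 responders, 1 in control 2 and 0 in the non-responders. Stable tumours 1 to 4 had 0.235, 0.829, 2.23 and 0.305 CPM, and stable tumours 5 and 6 had none. By the count table alone, the mean of 0.600 ± 0.854 CPM in stable tumours was at least 26.7-fold above the non-responders against a floor of 3 counts over that group. Against controls the ratio was 83.1 (95% exact Poisson interval 14.9 to 3281), or at least 22.3-fold without control 2. Stable tumour 3 carried the mean, which was 0.274 ± 0.339 CPM without it (n = 5), at least 12.2-fold above the non-responders and 37.9 times the controls (95% exact Poisson interval 6.81 to 1498). With no filter on low counts, edgeR called Tdo2 higher in stable tumours over non-responders (adjusted p = 0.00784) and controls (adjusted p = 0.00403) and lower in responders than in stable tumours (adjusted p = 0.0331), and DESeq2 called the comparisons with non-responders (adjusted p = 0.0153) and controls (adjusted p = 0.0154) but not the one with responders (adjusted p = 0.121).

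The 2 deposited tables did not give the same picture of Tdo2. In the RPKM table it was above 0 in all 25 tumours, including the 18 with 0 counts. Counts per M of the unscaled library and RPKM, as log2 with a small constant, had a Pearson r of 0.636 over 25 tumours. For the other 7 enzymes that r was 0.888 to 0.989. The rank correlation was 0.506 for Tdo2 and 0.841 to 0.979 for the other 7. On RPKM, the stable tumours (0.354 ± 0.296, n = 6) exceeded controls (0.0584 ± 0.0351, n = 5; limma adjusted p = 0.0126) and did not differ from non-responders past the threshold (0.144 ± 0.0936, n = 6; adjusted p = 0.130). Whether the 2 tables come from the same counting is not given in the sources used here, so the levels of Tdo2 are uncertain. The folds, floors and ratios given for it above hold for the count table only, and the group means in RPKM lie much closer together. The 3 hepatocyte markers Alb, Apoa1 and Cps1, looked at because Tdo2 is a liver enzyme, summed to 0 to 3.17 CPM in all tumours.

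Il4i1 (ENSMUSG00000074141.13, chromosome 7, 44816387 to 44840809, plus strand) had levels of 0.867, 1.62, 1.21, 1.07 and 3.16 CPM in controls 1 to 5. Non-responders ran from 1.38 over a median of 4.13 to 6.34 CPM, stable tumours from 6.22 over 7.90 to 9.31 CPM and responders from 4.69 over 7.44 to 12.0 CPM. All stable tumours and all responders were above all controls, and 5 of 6 stable tumours and 6 of 8 responders were above all non-responders. How many of all tested genes do the same was not counted. Over controls, 41.8% of them were called in stable tumours and 65.0% in responders. Il4i1 exceeded the controls by 1.99 log2 units over all anti-CTLA-4 tumours (SE 0.315, adjusted p = 1.86e-05), and was higher than in non-responders by 0.97 in both responders (SE 0.30, adjusted p = 0.0108) and stable tumours (SE 0.314, adjusted p = 0.0389). Means of stable tumours (7.85 ± 1.28 CPM) and responders (7.83 ± 2.27 CPM) differed by less than their spread, with an interval of -0.57 to 0.57 for their log2 difference. The annotation overlaps Il4i1 with Nup62 on the same strand and with Atf5 and Tbc1d17 on the other, each with more counts than Il4i1 (14623 to 25420), and how reads were shared among them is not given in the sources used here.

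Kynu, kynureninase (ENSMUSG00000026866.16, chromosome 2, 43555329 to 43682715, plus strand), also rose under anti-CTLA-4. Controls 1 to 5 had 0.167, 0.590, 0.391, 0.274 and 1.40 CPM. The non-responder range was 0.816 to 5.73 CPM with a median of 2.75, the stable range 3.69 to 9.59 with a median of 6.49, and the responder range 4.52 to 8.13 with a median of 6.42. Of the 20 anti-CTLA-4 tumours, 19 lay above every control, the exception being non-responder 3, which also kept the highest melanocyte marker sum of its group (13060 CPM). The log2 fold change over controls was 3.16 (SE 0.441, adjusted p = 4.61e-06), or 3.78 without control 5, which had the highest level of its group (adjusted p = 1.66e-06). It was 1.16 for responders over non-responders (SE 0.384, adjusted p = 0.0161) and 1.22 for stable tumours over non-responders (SE 0.402, adjusted p = 0.0419), and -0.06 between responders and stable tumours (95% interval -0.78 to 0.67).

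The calls of Kynu and Il4i1 between stable tumours and non-responders lie near the threshold. Of the 25 fits without 1 tumour, 10 lost the call of Kynu (adjusted p up to 0.105) and 8 that of Il4i1 (adjusted p up to 0.100), with log2 fold changes of 1.03 or more and 0.79 or more.

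Kmo, kynurenine monooxygenase (ENSMUSG00000039783.15, chromosome 1, 175620381 to 175662116, plus strand), shares kynurenine as a substrate with Kynu, and its group means had another order, with stable tumours first and then non-responders, responders and controls. Levels in controls 1 to 5 were 1.93, 3.06, 2.35, 1.84 and 4.29 CPM. Non-responders ran from 3.61 over a median of 6.55 to 7.20 CPM, stable tumours from 5.08 over 7.70 to 11.1 CPM and responders from 2.23 over 4.64 to 8.09 CPM. Of the 8 responders, 3 lay within the range of the controls, and 5 lay below every stable tumour. Kmo was called higher than in controls in stable tumours (1.55, adjusted p = 0.000392), non-responders (1.17, adjusted p = 0.0146) and responders (0.89, adjusted p = 0.0128), the last of which was lost with no filter on low counts (adjusted p = 0.0524) and with only the groups compared (adjusted p = 0.063). The non-responder call was lost without control 1 or control 4.

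Between responders and stable tumours Kmo differed by -0.66 on the log2 scale (95% interval -1.20 to -0.12, adjusted p = 0.0597), which edgeR did not call. DESeq2 called it, edgeR called it without responder 5 (-0.80, adjusted p = 0.0190), responder 6 (-0.79, adjusted p = 0.0355) or stable tumour 5 (-0.76, adjusted p = 0.0463), and adjusted for protein-coding share the difference was -0.19. Responder 5, the only responder with a protein-coding share like that of the other groups, had 8.09 CPM, the highest Kmo level among responders. Of the 5 macrophage markers, 4 were called lower in responders than in stable tumours, and their part in the difference was not tested. Fh1 overlaps Kmo on the opposite strand, with 24306 counts against 2634 for Kmo.

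RefSeq windows of 250 bases before the gene start (GRCm38.p6) were found for 3 of the 8 enzymes, Kmo, Il4i1 and Tdo2. Those of Kmo (chr1:175631943-175632192, plus strand) and Il4i1 (chr7:44836038-44836287, plus strand) are shown because Kmo and Il4i1 varied together within groups, as described further on, and both windows hold the letters GAGGAAGT or their complement, the core of the site of PU.1, the myeloid and B cell transcription factor. Both windows lie inside the longer GENCODE spans given above for these genes. Capitals mark that match, which was looked for after the sequences had been read.
Kmo: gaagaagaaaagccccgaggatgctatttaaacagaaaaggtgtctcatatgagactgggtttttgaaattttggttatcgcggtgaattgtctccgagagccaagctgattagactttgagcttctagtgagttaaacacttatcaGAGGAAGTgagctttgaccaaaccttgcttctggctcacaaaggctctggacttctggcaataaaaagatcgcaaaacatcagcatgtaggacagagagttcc
Il4i1: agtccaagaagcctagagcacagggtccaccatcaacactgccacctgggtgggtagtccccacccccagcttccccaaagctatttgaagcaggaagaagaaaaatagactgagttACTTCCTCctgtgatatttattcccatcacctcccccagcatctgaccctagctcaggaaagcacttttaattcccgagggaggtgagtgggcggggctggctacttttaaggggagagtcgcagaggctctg
In Kmo the match starts 103 bases before the gene start on the gene's strand, and in Il4i1 it starts 133 bases before it on the opposite strand, written there as ACTTCCTC. These letters occur, on either strand, in 2.44% of 32851 such windows (802 windows). Because the letters were picked after these windows had been read, that share is not a chance rate for a match in both. Neither window held an interferon gamma activated site (TTCNNNGAA, in 7.02% of windows), an interferon-stimulated response element (GAAA, any 2 bases and GAAA, in 2.98%), a STAT6 site (TTC, any 4 bases and GAA, in 5.85%) or the core of an aryl hydrocarbon response element (GCGTG, 28.16%), and the Tdo2 window held 1 match to the last of these. The first 3 of these motifs can overlap one another. A match describes letters in this window and no binding was measured.

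Arg1, arginase (ENSMUSG00000019987.9, chromosome 10, 24915221 to 24927484, minus strand), was the most abundant of the 8 in every group per gene length. Its RPKM was 124.2 ± 96.0 in responders, 118.0 ± 50.4 in stable tumours, 36.2 ± 66.6 in non-responders (9.17 ± 6.61 without non-responder 6) and 8.05 ± 4.58 in controls (SD). In controls 1 to 5 it had 17.1, 6.41, 12.4, 14.3 and 32.5 CPM, and in non-responders 1 to 6 it had 25.6, 7.60, 11.2, 36.2, 7.36 and 370.7 CPM. Stable tumours ran from 103.4 over a median of 253.5 to 433.5 CPM and responders from 27.8 over 200.1 to 628.9 CPM. Non-responders 1 to 5 were thus within or close to the control range, and non-responder 6 within that of stable tumours. All stable tumours and 7 of 8 responders were above every control, responder 7 being the exception.

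Over all anti-CTLA-4 tumours Arg1 exceeded the controls by 3.36 log2 units (SE 0.895, adjusted p = 0.00349), or by 2.65 without non-responder 6 (adjusted p = 0.00087). The log2 fold change was 3.91 for responders, 3.95 for stable tumours and, not called, 2.21 for non-responders (adjusted p = 0.109). Without non-responder 6 the last of these was 0.09 (adjusted p = 0.943). With all tumours, Arg1 was not called between responders and non-responders (1.70, adjusted p = 0.0795) or stable tumours and non-responders (1.73, adjusted p = 0.167). Without non-responder 6 both were called, at 3.83 (adjusted p = 0.000184) and 3.86 (adjusted p = 0.000521). DESeq2 called the first with all tumours (1.72, adjusted p = 0.0459), and so did limma on log2(RPKM + 1) (2.69, adjusted p = 0.00258), which also called the second (2.95, adjusted p = 0.00727). Non-responder 6 had the lowest melanocyte marker sum of its group (375.8 CPM) and the highest macrophage (1799 CPM), monocyte (487.0 CPM) and neutrophil (29.5 CPM) marker sums, and the part of these in its Arg1 level was not tested.

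Nos2 (ENSMUSG00000020826.8, chromosome 11, 78920787 to 78960254, plus strand) was the only one of the 8 whose anti-CTLA-4 and control values did not overlap. How many of all tested genes separate in this way was not counted, and 51.1% of them were called in that comparison. Controls 1 to 5 had 1.27, 2.21, 2.43, 1.56 and 2.02 CPM, and non-responders 1 to 6 had 12.8, 2.72, 3.82, 29.5, 10.4 and 110.9 CPM. Stable tumours ran from 87.6 over a median of 136.1 to 258.7 CPM, and responders from 79.0 over 112.4 to 322.2 CPM. The lowest anti-CTLA-4 value, in non-responder 2, was close to the highest control, and non-responders 2 and 3, which had the highest melanocyte marker sums of their group (6379 and 13060 CPM), had the lowest Nos2. All responders and stable tumours exceeded non-responders 1 to 5, while non-responder 6 lay among them.

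The fitted level of Nos2 was 46.2-fold that of controls over all anti-CTLA-4 tumours. By group the log2 fold change was 6.34 in responders (SE 0.817, adjusted p = 1.19e-06), 6.33 in stable tumours (SE 0.826) and 3.91 in non-responders (SE 0.743, adjusted p = 0.00117), the last of which was 2.65 without non-responder 6 (adjusted p = 0.00257). Nos2 was higher than in non-responders by 2.43 in responders (SE 0.605, adjusted p = 0.00272) and by 2.42 in stable tumours (SE 0.625, adjusted p = 0.0127), or 3.70 and 3.69 without non-responder 6. The stable call was lost with only those 2 groups in the fit (adjusted p = 0.0566). Responders (153.8 ± 82.9 CPM) and stable tumours (152.8 ± 58.6 CPM) had nearly equal means, and the interval of their log2 difference was -1.08 to 1.09. Responder 5 had 79.0 CPM, the lowest of its group and above 5 of 6 non-responders.

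Compared per gene length by group mean, Arg1 was followed by Nos2 in the 3 anti-CTLA-4 groups and by Il4i1 in controls, and Tdo2 and Ido1 were the last 2 in all 4 groups. In non-responders the mean of Nos2 was carried by non-responder 6, at 4.67 ± 6.55 RPKM with it and 2.08 ± 1.83 without it (n = 5). The mean of Kmo in non-responders was 2.10 ± 0.568 RPKM, and by median Kmo (2.169) lay above Nos2 (2.145) there. Nos2 stood at 0.334 ± 0.109 RPKM in controls and at 24.5 ± 8.66 in stable tumours and 29.3 ± 14.5 in responders, while Kynu, Kmo and Il4i1 stayed between 1.88 and 3.51 RPKM on average in those 2 groups.

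The balance of the enzymes that share a substrate moved with the levels, and is given as a description because its parts were tested above. In CPM the ratio of Arg1 to Nos2 was 0.270 to 4.04 in responders (median 1.21), 1.17 to 2.51 in stable tumours (median 1.57), 0.705 to 3.34 in non-responders (median 2.40) and 2.90 to 16.1 in controls (median 9.18). All stable tumours, 7 of 8 responders and 4 of 6 non-responders had a lower ratio than every control. For Kynu to Kmo the ratio was 0.704 to 3.00 in responders (median 1.40), 0.693 to 0.994 in stable tumours (median 0.838), 0.226 to 0.824 in non-responders (median 0.393) and 0.0862 to 0.325 in controls (median 0.167). Here all stable tumours and all responders had a higher ratio than every control.

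**Figure D3:**
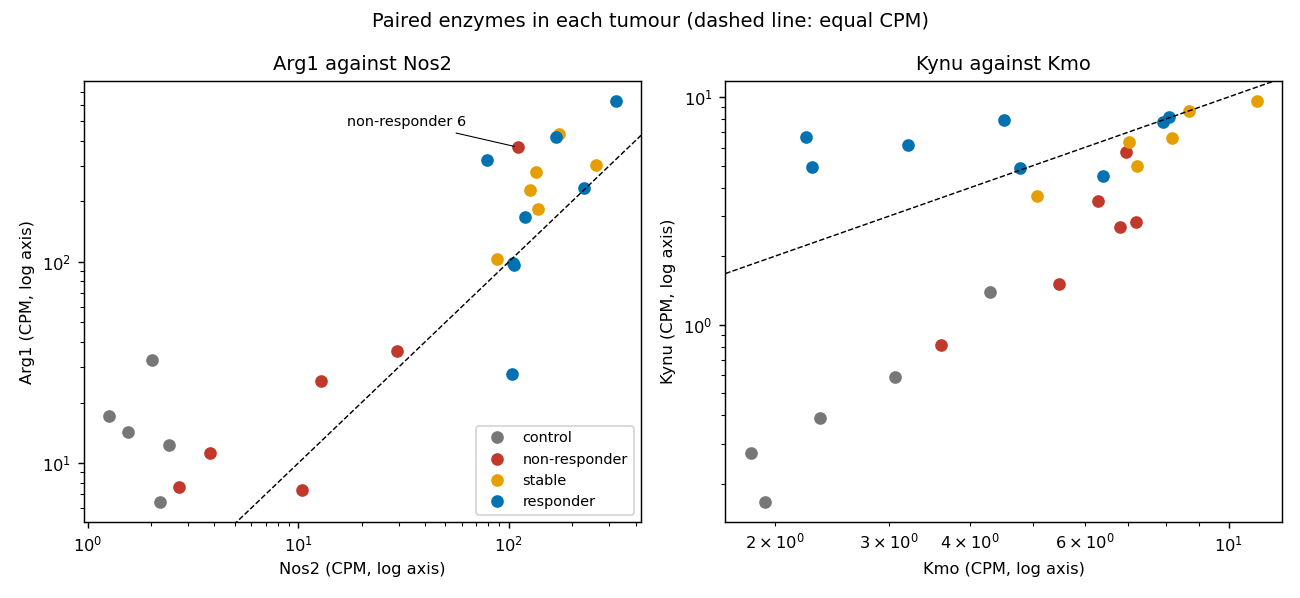
Arg1 against Nos2 and Kynu against Kmo in each tumour, both axes in CPM on log scales, with colours for the 4 groups and a dashed line where both genes have equal CPM. Non-responder 6 lies with the stable tumours and responders in the left panel, away from non-responders 1 to 5, and 6 of 8 responders lie on or above the line for Kynu and Kmo.

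The leukocyte marker sums were higher in stable tumours than in controls, but by median that of mature dendritic cells was not higher in responders than in controls. Ptprc, the pan-leukocyte marker CD45, was 411.5 ± 107.2 CPM in responders, 488.1 ± 84.3 in stable tumours, 233.2 ± 128.9 in non-responders and 64.5 ± 21.0 in controls, and was called higher in every comparison with controls and with non-responders. Of the 5 macrophage markers (Adgre1, Csf1r, Cd68, C1qa and C1qb), 5 were called higher in anti-CTLA-4 tumours than in controls and 2 in stable tumours than in non-responders. Between responders and non-responders edgeR called 0 of them (0 at an unadjusted p under 0.05). The 3 monocyte markers (Ly6c2, Ccr2 and Chil3) summed to 120.4 to 2084 CPM in responders, 372.0 to 1471 in stable tumours, 55.1 to 487.0 in non-responders and 33.8 to 97.5 in controls. The 5 neutrophil markers (S100a8, S100a9, Csf3r, Cxcr2 and Ly6g) summed to at most 67.0 CPM in any tumour, and Ly6g was at 0 in all controls. Of the 4 tested, 1 was called higher than in controls over all anti-CTLA-4 tumours, 4 in responders, 2 in stable tumours and 1 in non-responders. The 5 mature dendritic cell markers (Ccr7, Fscn1, Ccl22, Cd83 and Il12b) had sums of 68.5 to 163.3 CPM in responders, 128.5 to 185.6 in stable tumours, 66.3 to 148.0 in non-responders and 66.9 to 105.3 in controls. All stable tumours were above all controls on that sum, and 4 of 5 of these markers were called higher there than in controls and 3 of 5 higher than in non-responders. In responders 4 were called higher and 1 lower than in controls, 1 lower than in non-responders and 2 lower than in stable tumours. The median sum was 84.4 CPM in responders, 142.0 in stable tumours, 112.3 in non-responders and 96.8 in controls. The 4 type 1 conventional dendritic cell markers, Xcr1 and Clec9a among them, had sums of 80.5 to 142.9, 115.6 to 202.6, 27.5 to 161.1 and 17.2 to 42.9 CPM in the same order of groups, and 4 of 4 were called higher in anti-CTLA-4 tumours than in controls. The 5 T cell markers (Cd3e, Cd3d, Cd3g, Cd4 and Cd8a) had 64.5 to 173.4, 97.1 to 158.3, 16.4 to 139.8 and 6.63 to 19.9 CPM in that order, and 5 of 5 were called higher. These 2 sums were therefore also highest in stable tumours and responders by median. Of the other lists, 3 of 3 B cell and 4 of 5 fibroblast markers were called higher in anti-CTLA-4 tumours, 2 of 3 endothelial markers lower, and 1 of 3 pericyte markers higher and 1 lower. Of the 3 keratinocyte markers edgeR called 0 in that comparison (0 at an unadjusted p under 0.05). The part of any of these in the enzyme levels was not tested.

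Set against the summed macrophage markers, the enzymes did not all keep the order of their CPM. Nos2 was 156.3 ± 75.5 CPM per 1000 CPM of macrophage markers in responders, 77.4 ± 17.2 in stable tumours, 20.2 ± 21.1 in non-responders and 4.50 ± 1.22 in controls, so that all stable tumours and responders and 5 of 6 non-responders exceeded every control. Arg1 was 220.1 ± 145.2, 131.5 ± 53.8, 51.4 ± 76.4 and 37.0 ± 14.3 in the same order of groups. Without non-responder 6 the non-responder mean was 20.4 ± 11.0 (n = 5) for Arg1, below that of controls, and 11.9 ± 6.41 for Nos2, still above it. Kynu was 6.69 ± 2.86, 3.49 ± 1.26, 2.73 ± 0.849 and 1.18 ± 0.700. Kmo was 4.95 ± 2.61, 4.16 ± 1.27, 6.78 ± 2.30 and 6.12 ± 1.05, and Il4i1 was 8.28 ± 3.89, 4.14 ± 0.883, 4.07 ± 1.44 and 3.48 ± 1.08. Responder 5, the only responder with a protein-coding share like that of the other groups, had 35.9 for Nos2, below every stable tumour (lowest 51.7). Its Arg1 (144.7), Kynu (3.69), Kmo (3.67) and Il4i1 (3.55) lay within the ranges of the stable tumours. The part of library composition in the responder means on this scale was not tested. Relative to 1000 CPM of Ptprc, Kmo was lower than every control in all 6 stable tumours (16.2 ± 3.30) and all 8 responders (11.9 ± 3.99), where controls had 41.3 ± 3.36. On that scale the order of Il4i1 turned, with controls highest (23.3 ± 5.30) and then responders (19.2 ± 3.75), non-responders (17.8 ± 3.28) and stable tumours (16.2 ± 2.46). Of the anti-CTLA-4 tumours 0 of 20 exceeded every control in Il4i1 per Ptprc and 5 of 6 stable tumours lay below every control, whereas per macrophage marker 6 of 8 responders exceeded every control.

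**Figure D4:**
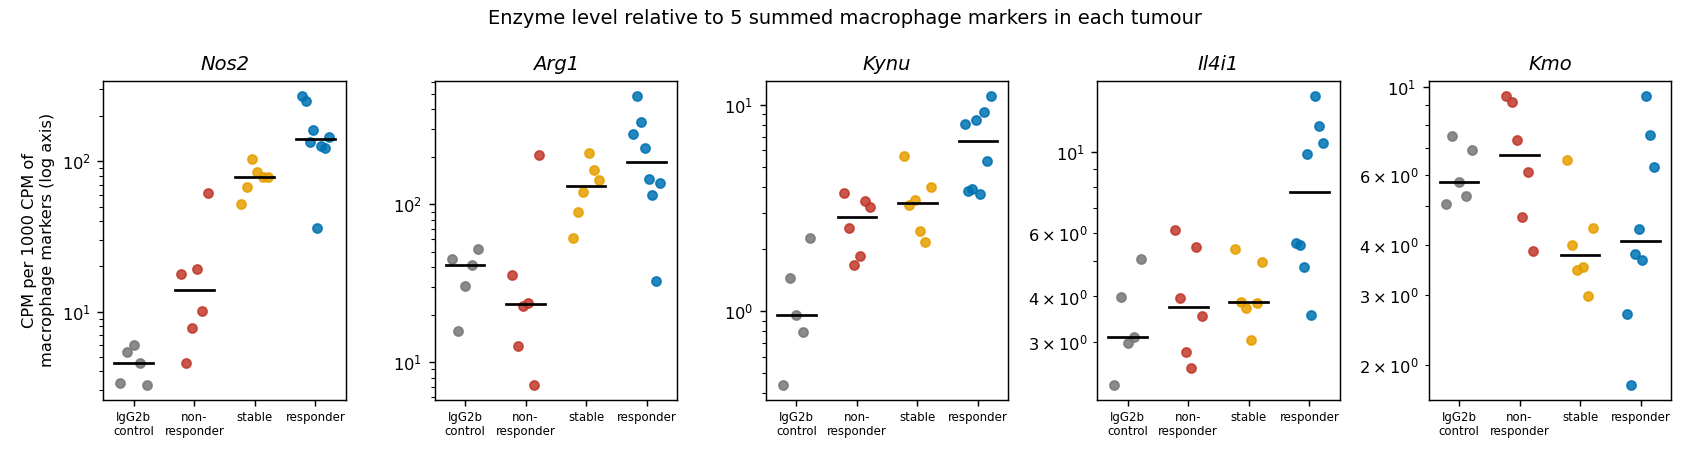
CPM of 5 enzymes per 1000 CPM of 5 summed macrophage markers in each tumour, log axis, by group; points are tumours and bars medians. Nos2 separates all stable tumours and responders from the controls on this scale, while Kmo and Il4i1 overlap the controls in every anti-CTLA-4 group.

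Other genes of the kynurenine and tryptophan pathway were taken from a list of 18, of which 15 were tested and Aadat, Acmsd and Cyp1a1 had too few counts. Over controls 7 were called higher and 1 lower in anti-CTLA-4 tumours, where 27.7% of all tested genes were called higher and 23.4% lower, with a list median of 0.49 against 0.07 over all genes. The 3 tested targets of the aryl hydrocarbon receptor, a sensor of kynurenine, did not move one way. Ahrr rose by 2.64 on the log2 scale (adjusted p = 4.82e-05) and Cyp1b1 by 1.19 (adjusted p = 0.00173), and Tiparp was the gene called lower (-1.21, adjusted p = 1.6e-05). Responders over non-responders had 4 of 15 called higher and 0 lower (list median 0.26, against 0.05), a share of higher calls near the 25.2% over all genes. These were Haao, which acts after Kynu towards quinolinic acid (1.20, adjusted p = 0.00425), Gpr35, a receptor for which kynurenic acid has been described as a ligand (1.13, adjusted p = 0.00295), the amino acid transporter Slc7a8 (0.88, adjusted p = 0.0128) and Eif2ak4, the GCN2 kinase that senses uncharged transfer RNA (0.38, adjusted p = 0.0201). Stable tumours over non-responders had 3 higher and 0 lower, where 7.08% of all genes were higher and 7.86% lower. They were Gpr35 (1.11, adjusted p = 0.0157), Haao (1.08, adjusted p = 0.0317) and Slc3a2, the heavy chain of tryptophan transporters (0.68, adjusted p = 0.0124). Between responders and stable tumours 1 was higher, Eif2ak4 (0.56, adjusted p = 0.0043), and 2 were lower. The lower 2 were Wars, the tryptophanyl-tRNA synthetase induced by interferon gamma (-0.79, adjusted p = 0.00533), and Slc3a2 (-0.42, adjusted p = 0.0452). Wars stood at 64.0 ± 16.4 CPM in the former and 110.6 ± 13.6 CPM in the latter.

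Of 21 arginine pathway genes, 19 were tested and Otc and Agmat were not. Anti-CTLA-4 tumours had 4 called higher (Slc7a2, Ass1, Gch1 and Sms) and 8 lower than controls, against 27.7% higher and 23.4% lower over all genes, with a list median of -0.31 against 0.07. Responders had 4 higher and 9 lower than non-responders, against 25.2% and 23.8% of all genes, with a median of -0.37. Lower in responders than in non-responders were Ddah1 and Ddah2, which remove the methylarginines that inhibit nitric oxide synthases (-2.17, adjusted p = 0.000716, and -0.93, adjusted p = 9.66e-06), and Srm, spermidine synthase (-0.95, adjusted p = 0.000239). Ddah1 was 9.52 ± 6.86 CPM in responders, 10.4 ± 2.42 in stable tumours, 43.6 ± 35.7 in non-responders and 91.5 ± 9.28 in controls, and the melanocyte marker sums given above were low in the same groups, whose part was not tested. Arg2, the mitochondrial arginase, was higher in responders (1.65, adjusted p = 0.0148), and the other 3 called higher were the transporters Slc7a2 and Slc7a3 and spermine synthase, Sms. Stable tumours had 3 higher and 2 lower than non-responders, against 7.08% and 7.86% of all genes, among them Ass1, which rebuilds arginine from citrulline (1.66, adjusted p = 0.0191), and Slc7a2, an arginine importer (0.99, adjusted p = 0.0387). The third was Gch1, which makes the cofactor of nitric oxide synthases, and the 2 lower were Ddah1 and Ddah2. Slc7a2 reached 847.1 ± 105.1 CPM in stable tumours and 747.3 ± 224.9 in responders, from 127.4 ± 30.6 in controls. Between responders and stable tumours 1 was higher, Slc7a3, and 3 were lower, Oat (-0.74, adjusted p = 0.00958), Odc1 (-0.58, adjusted p = 0.0114) and Srm (-0.46, adjusted p = 0.0402), which lead from ornithine to proline precursors and polyamines.

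The signals known to induce these enzymes were taken from a list of 16 genes, 14 of which were tested, Il4 and Il13 having too few counts. Anti-CTLA-4 tumours had 11 higher and 0 lower than controls, with a list median of 0.96, where 27.7% of all genes were higher and 23.4% lower. Ifng rose by 4.14 on the log2 scale (adjusted p = 1.38e-05) and Tnf by 3.17 (adjusted p = 7.81e-06). Stable tumours had 8 of 14 higher than non-responders and 0 lower, where 7.08% of all genes were higher. Responders had 4 of 14 higher and 0 lower, a share of higher calls near the 25.2% over all genes. Those called in both included Il1b (2.14 and 1.52), Cebpb, a factor that drives Arg1 and Nos2 in myeloid cells (1.86 and 1.66), and Il4ra (0.92 and 0.77). The fourth higher in responders was Tgfb1 (0.63, adjusted p = 0.00232). Between responders and stable tumours, where 20.5% of all genes were higher and 17.8% lower, 0 were higher and 4 lower, which were Ifngr2, a chain of the interferon gamma receptor (-0.36, adjusted p = 0.0203), Hif1a (-0.83, adjusted p = 0.0146), Jak1 (-0.52, adjusted p = 0.0031) and Jak2 (-0.43, adjusted p = 0.0325). These and the other calls between responders and stable tumours given for the 3 lists were lost when the fit held the protein-coding share, under which edgeR called 0 genes in that comparison (2296 at an unadjusted p under 0.05), while DESeq2 without that term called 7655. Between responders and non-responders the fit with that share called 1810 genes, against 8823 without it. Which of the list calls between those 2 groups it kept is not given here. Ifng was 3.57 ± 1.56 CPM in responders and 6.17 ± 1.53 in stable tumours, a difference that was not called.

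Among themselves the enzymes followed one another to different degrees over the 25 tumours, which share group, library composition and cell content, so that the values are descriptions. Kynu and Il4i1 were closest, with a Pearson r of 0.964 on log2 CPM and 0.853 after each group's mean had been removed. Arg1 and Nos2 had 0.884 and 0.751, and Ido1 and Nos2 0.883 and 0.791. Kmo and Il4i1 had 0.696 and 0.713, whereas Kmo had 0.453 and -0.02 with Nos2 and 0.292 and -0.11 with Arg1. Kmo thus varied with Il4i1 within groups but hardly with either arginine enzyme.

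Over 13346 genes with enough counts, those most like each enzyme in the same measure were named by rank alone. Kynu was nearest to Myo1g (0.985), Zap70 (0.984) and Ciita (0.983), genes of leukocytes, T cells and antigen-presenting cells. For Il4i1 they were Sh2d2a (0.978), Dock2 (0.975) and Myo1g (0.973). Kmo was nearest to Tlr11 (0.940), Rnase6 (0.902) and Igf1 (0.895), and Arg1 to Mmp12, the macrophage elastase (0.964), Chil3 (0.952) and Adam8 (0.952). Nos2 was nearest to Tgif1 (0.982), Apobr (0.982) and Abr (0.979), and Ido1 to Cd274, which encodes the ligand PD-L1 (0.897), Cd1d1 (0.894) and Hk3 (0.888). For Ido2 the nearest were Dmpk (0.904), Exoc3l4 (0.883) and Unkl (0.879). With the group means removed these values fell to between 0.742 and 0.931.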

How the data were processed

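The deposited files are a table of expected counts, estimated per gene by the authors for 55450 genes (5.64% of values not whole), and a table of RPKM values for 19522 gene symbols, 19518 of them unique. Per the submitters' processing notes, bcl2fastq 2.17, Trimmomatic, STAR 2.5.1, RSEM 1.2.22 and the build mm10 were used. The labels name a stranded total RNA kit and also polyA RNA. Gene positions are those of GENCODE M21 (GRCm38), which holds all 55450 identifiers.

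Counts were rounded and tested with edgeR 4.0.16 in R 4.3.3 (filterByExpr, TMM, robust quasi-likelihood F tests, 4 group means over all 25 tumours). P-values are two-sided and adjusted by Benjamini-Hochberg over 18031 genes, and a call is an adjusted p under 0.05. Standard errors are the log2 fold change over the root of F, and intervals of log2 fold changes are normal 95% intervals from them. These are somewhat narrower than the F test implies, so an interval can leave out 0 where the unadjusted p is not under 0.05. The anti-CTLA-4 contrast weighs the 3 outcome groups equally. Log2 CPM for correlations used a prior count of 2. The fit was tested on simulated data. Floors are 3 counts over a group. Depth was 8.77 to 34.3 M counts per tumour.

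As alternatives the fits were repeated with RLE size factors, DESeq2 1.42.0, no low-count filter, only the groups compared, the protein-coding share as a covariate, protein-coding genes only, limma 3.58.1 on log2(RPKM + 1), and leaving out each tumour. Leaving out both responders of lowest protein-coding share was added after the data were seen. All 8 enzymes are named throughout. Of the other lists the rule names genes called between outcome groups with a mean of at least 1 CPM, up to 4 per list and comparison by size of fold change. Ifng, Tnf, Gch1, Sms, Slc7a3, Ahrr, Cyp1b1 and Tiparp were named after their values were seen. From the macrophage list and the inducing signals 1 gene each was left out and is not reported here. The 3 genes most like an enzyme leave out predicted, receptor segment and ribosomal protein genes and pseudogenes. The members, lists, markers and motifs were chosen with earlier results of these data known. Replicate numbers follow record order and pair no samples. Nothing in the labels says more on how tumours were sampled, so p-values measure the spread between these tumours.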

Additional observations from a re-analysis of the deposited data

Results flagged for a closer look

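In 31 combinations of an enzyme and a group, the tumour farthest from the rest was compared with Dixon's critical value, which chance passes in about 1 of 20 groups. In 2 of them 1 control stood apart from 4 controls at 0, so that its gap made up the whole range (ratio 1.0, critical value 0.71 for 5 tumours). Ido1 in control 4 was 0.0274 CPM, and Tdo2 in control 2 was 0.0369 CPM. Each of these values is 1 count, and any count beside 4 controls at 0 gives a ratio of 1.0. The rate of 1 in 20 therefore does not apply to these 2 flags, which do not show an outlying tumour. The ratios with and without these tumours stand beside the results on Ido1 and Tdo2.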

How the results depend on the processing

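None of the 7 tested enzymes reversed a called direction under any alternative run. RLE size factors and protein-coding genes only left all 49 member comparisons on their side of the threshold. With protein-coding share as a covariate, 0 enzymes were called between responders and non-responders (edgeR; 4 at an unadjusted p under 0.05) and 1810 of all genes, against 8823 without it, and 0 genes between responders and stable tumours (edgeR; 2296 at an unadjusted p under 0.05), against 6891. Without both responders of lowest protein-coding share 4018 genes were called in the latter comparison. There 1 enzyme was called with no low-count filter (Tdo2) and 1 with DESeq2 (Kmo). With only the groups compared, 0 enzymes were called between stable tumours and non-responders (edgeR; 3 at an unadjusted p under 0.05), and 3 enzymes and 1559 genes between non-responders and controls, where limma on RPKM also called 3 enzymes and split its genes into 1247 higher and 858 lower, against 1907 and 593 in edgeR. For the pairwise fit of stable tumours and non-responders the number of all genes called is not given here. The loss of enzyme calls there is therefore not read as particular to the enzymes. Ido1 had no value in the pairwise fits where it did not pass the filter. The cause of these changes was not tested. DESeq2, which was run with no filter, put the median log2 fold change over all genes at 0.461 for responders minus controls, against 0.158.

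Leaving out 1 tumour at a time gave these ranges. Responder minus non-responder had 3 to 5 enzymes and 7255 to 10052 genes, responder minus stable 0 to 1 and 5131 to 8862, and stable minus non-responder 1 to 5 and 1470 to 3804. Responder minus control had 7 enzymes throughout and 10978 to 12223 genes, stable minus control 6 to 7 and 6657 to 8116, non-responder minus control 4 to 6 and 1570 to 4237, and anti-CTLA-4 minus control 7 throughout and 7697 to 10146. No paired analysis was possible because the replicate numbers follow record order. Depth limits Ido1 and Tdo2, whose counts over all tumours were 138 and 77.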
